A study of Mus musculus with 217 samples.

Results

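AP-1 is a transcription factor made of a pair of proteins, one of the Fos and one of the Jun family or both of the Jun family, that hold together by a leucine zipper and bind short DNA sites with their basic regions. Fos, Fosb and Junb are immediate early genes: they are transcribed within minutes of synaptic or growth factor stimulation, without need of new protein, and their mRNAs are short lived. In striatal neurons Fos is used as a mark of recent activity, a truncated splice product of Fosb builds up under repeated drug exposure, and Jund is made at a steady level. The 6 genes described here were chosen by name: the Fos family members Fos, Fosb and Fosl2 and the Jun family members Jun, Junb and Jund. All 6 were listed in the tables of all 3 subregions, and no member was lost to the authors' filter on low counts. They are 6 of the 12270 genes listed in any table, of which 11867 were listed in the nucleus accumbens (NAc), 12101 in the dorsomedial striatum (DMS) and 11394 in the dorsolateral striatum (DLS).

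The data are bulk RNA-seq of 217 libraries from 93 male and female C57BL/6J mice of about 10 weeks, a wild-type inbred strain with no treatment. Light and dark lasted 12 h each. Tissue was taken at 6 Zeitgeber times (ZT, hours counted from when the lights went on), of which ZT2, ZT6 and ZT10 fell in the light and ZT14, ZT18 and ZT22 in the dark. Each library holds bilateral 1 mm punches of 1 subregion of 1 animal. Males gave 40 NAc, 36 DMS and 35 DLS libraries, and females 37, 34 and 35, with 5 to 7 libraries for each sex, time and subregion.

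Values are the authors' log2 normalised counts, normalised for each subregion on its own, so levels of different subregions are not on a common scale. Over the listed genes the DMS libraries held 35711640 to 57468484 reads and the DLS libraries 29719087 to 56799764, while in NAc the depth is unknown. The DLS library of the male M13 at ZT6 held only 5511766 reads outside its top 3 genes, against a DLS median of 21324771. Its share of mitochondrial rRNA was 13.2%, against a DLS median of 41.6%. It was kept in the main DLS fits. Fos had a median of 428.5 reads in DMS (35 to 1547) and 146 in DLS (6 to 1065). The 7 medium spiny neuron markers looked for were listed in every subregion. Of 6 cortical neuron markers, 3 were found in each of NAc and DLS, and 2 in DMS. The DMS libraries formed a high and a low class by their share of mitochondrial rRNA: 33 libraries at 35.3% to 52.6% and 37 at up to 29.9%. The class with the high share held 3, 4, 7, 7, 10 and 2 libraries at ZT2, ZT6, ZT10, ZT14, ZT18 and ZT22, so it is entangled with time, and it was a term in each DMS fit. The animals carry numbers up to 29 or from 31, which differ across many genes in DMS and DLS.

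Short elements before the start of a gene are textbook sites of the response to activity. In Fosl2 and Jund the RefSeq start lay 671 and -1210 bases (minus is upstream) from the GENCODE gene start. Their stretches are therefore not shown. In Fos, Fosb, Jun and Junb the offsets were 0, 6, 0 and -30 bases, and the stretches before their start sites are shown. They are from RefSeq (GRCm38.p6), 5′ to 3′ on the strand of the gene, and lie at chr12:85473740-85473889 on the plus strand (Fos), and on the minus strand at chr7:19310052-19310195 (Fosb), chr4:95052223-95052372 (Jun) and chr8:84978749-84978898 (Junb). Capitals mark 3 sequences searched on both strands: the core of the cAMP response element, TGACG, the 8-base AP-1 variant TGANNTCA and the TATA box TATAAA.
Fos: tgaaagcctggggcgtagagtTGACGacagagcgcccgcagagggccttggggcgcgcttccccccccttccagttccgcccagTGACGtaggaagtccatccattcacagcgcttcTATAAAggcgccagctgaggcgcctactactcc
Fosb: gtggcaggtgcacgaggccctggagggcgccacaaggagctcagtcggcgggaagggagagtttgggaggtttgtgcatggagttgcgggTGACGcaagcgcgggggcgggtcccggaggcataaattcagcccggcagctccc
Jun: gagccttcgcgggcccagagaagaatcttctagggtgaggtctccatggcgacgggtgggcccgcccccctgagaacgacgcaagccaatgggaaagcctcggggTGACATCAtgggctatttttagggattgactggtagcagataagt
Junb: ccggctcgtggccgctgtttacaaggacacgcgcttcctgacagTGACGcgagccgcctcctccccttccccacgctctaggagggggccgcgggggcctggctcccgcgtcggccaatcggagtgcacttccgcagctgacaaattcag
TGACG stands at bases -129 and -66 of Fos, -60 of Fosb and -106 of Junb, counted from the RefSeq start, and 20.9% of 32544 promoter windows of 300 bases hold it. Jun holds TGACATCA at -45, a form of TGANNTCA, which 13.9% of windows hold, and Fos holds TATAAA at -33, which 13.6% hold. Outside the stretches shown, the windows hold TGAGCTCA, another form of TGANNTCA, at 2 bases past the start of Jun, TGAAATCA at -61 of Jund and TATAAA at the start of Junb. The whole element TGACGTCA (1.80% of windows), the 7-base AP-1 site TGANTCA (7.79%), the clock E-box CACGTG (7.17%) and the CArG box bound by serum response factor (1.64%) were in none of the members' windows. Each window ran from 250 bases before the RefSeq start to 50 bases after it, and sites farther out were not searched. The windows of Fosl2 and Jund lie away from their GENCODE gene starts. A match or its absence is a description of letters in these windows.

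The 6 genes differed widely in how much they varied between animals. Fos had the widest spread of the members, and Jund the narrowest. Fos averaged 7.73 ± 0.90 in NAc (SD, n = 77), 8.54 ± 1.19 in DMS and 7.06 ± 1.26 in DLS (n = 70 each) on the log2 scale, and its SD was above that of 98.9%, 99.6% and 99.9% of all listed genes. Its lowest and highest libraries lay 4.94 apart in DMS and 6.19 apart in DLS. Fosl2, which encodes Fra-2, a Fos protein that rises later and lasts longer than Fos itself, averaged 9.58 ± 0.52, 9.79 ± 0.84 and 9.35 ± 0.72. Junb, a Jun protein and frequent partner of Fos, averaged 10.10 ± 0.43, 10.66 ± 0.65 and 9.82 ± 0.62. Jund averaged 11.44 ± 0.17, 11.71 ± 0.10 and 11.30 ± 0.13, and its SD was above that of only 7.18%, 2.31% and 11.3% of genes. Fosb (SD 0.59, 0.69 and 0.44) and Jun (0.31, 0.26 and 0.20) lay between.

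Levels of different genes were compared per kb of exon, within a subregion. Jund led with a mean log2 normalised count per kb of 10.70 in NAc, 10.97 in DMS and 10.56 in DLS, above 95.3% to 96.2% of genes. Junb followed at 8.90, 9.45 and 8.62, then Jun at 8.20, 8.45 and 7.85. Fos stood at 6.50, 7.31 and 5.83, Fosl2 at 6.30, 6.52 and 6.08, and Fosb last at 5.34, 5.84 and 4.79. Fos and Fosl2 lay within 1 SD of each other in every subregion and change places in DLS, and Fosb lay within 1 SD of Fosl2 in DMS. On GRCm38, Junb (chr8:84974484-84978718, minus strand) overlaps Prdx2 on the opposite strand. The level of Junb is uncertain, because the sources do not say whether reads were counted by strand. Fos lies at chr12:85473890-85477273 and Fosl2 at chr5:32135801-32157842, both on the plus strand. Jun lies at chr4:95049034-95052222 and Fosb at chr7:19302696-19310051, both on the minus strand, and Jund at chr8:70698949-70700616 on the plus strand. Counts are per gene, so the splice products of Fosb are not told apart.

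The first question was whether the members followed the time of day. In DMS Fosl2, Fosb, Jun and Junb were rhythmic with peaks in the dark; in DLS the 24 h curve called only Jund, and in NAc none of the 6. Late in the light, at ZT10, the median of Fos, Fosl2 and Jun was the lowest of the 6 times in both dorsal subregions, and so was that of Fosb and Junb in DMS. In bulk tissue, fewer cells of a type and less RNA per cell cannot be told apart.

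Fosl2 gave the clearest pattern. In DMS the lowest, median and highest libraries were 9.51, 10.17 and 10.96 at ZT2, 8.31, 9.86 and 10.62 at ZT6 and 7.78, 8.84 and 9.87 at ZT10. They were 9.12, 10.16 and 11.04 at ZT14, 9.27, 9.88 and 11.17 at ZT18, and 8.69, 10.75 and 11.14 at ZT22. The ZT10 libraries were thus low as a group, with only their highest reaching the median of ZT6, while the other times overlapped broadly. A 24 h cosine curve had an amplitude of 0.57 ± 0.10 (SE), a 2.21-fold range from trough to peak, with its peak at 19.5 ± 0.7 h (limma, adjusted p = 2.8e-05, Benjamini-Hochberg over all 12101 genes). In DLS the medians of Fosl2 were 9.58, 9.33, 8.57, 9.72, 9.56 and 8.95 over the 6 times, and the ZT10 libraries spanned 7.83 to 9.23. In NAc the medians were 9.62, 9.47, 9.29, 9.79, 9.75 and 9.64, again with ZT10 lowest, and the times overlapped throughout.

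Fos followed the same outline in DMS with a wider scatter. Its lowest, median and highest libraries there were 7.22, 9.12 and 10.04 at ZT2, 5.75, 8.99 and 10.25 at ZT6, and 5.88, 7.72 and 9.32 at ZT10. They were 7.25, 8.65 and 10.58 at ZT14, 6.64, 8.71 and 10.21 at ZT18, and 5.64, 9.33 and 10.23 at ZT22. Every time point held animals with low and animals with high Fos. In DLS its medians were 7.23, 7.87, 6.37, 7.45, 6.86 and 7.01, and in NAc 7.93, 7.81, 7.74, 7.77, 7.84 and 7.77. The amplitude of Fos was 0.39 ± 0.16 in DMS (adjusted p = 0.147), 0.23 ± 0.21 in DLS (adjusted p = 0.686) and 0.03 ± 0.14 in NAc (adjusted p = 0.989).

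**Figure D1:**
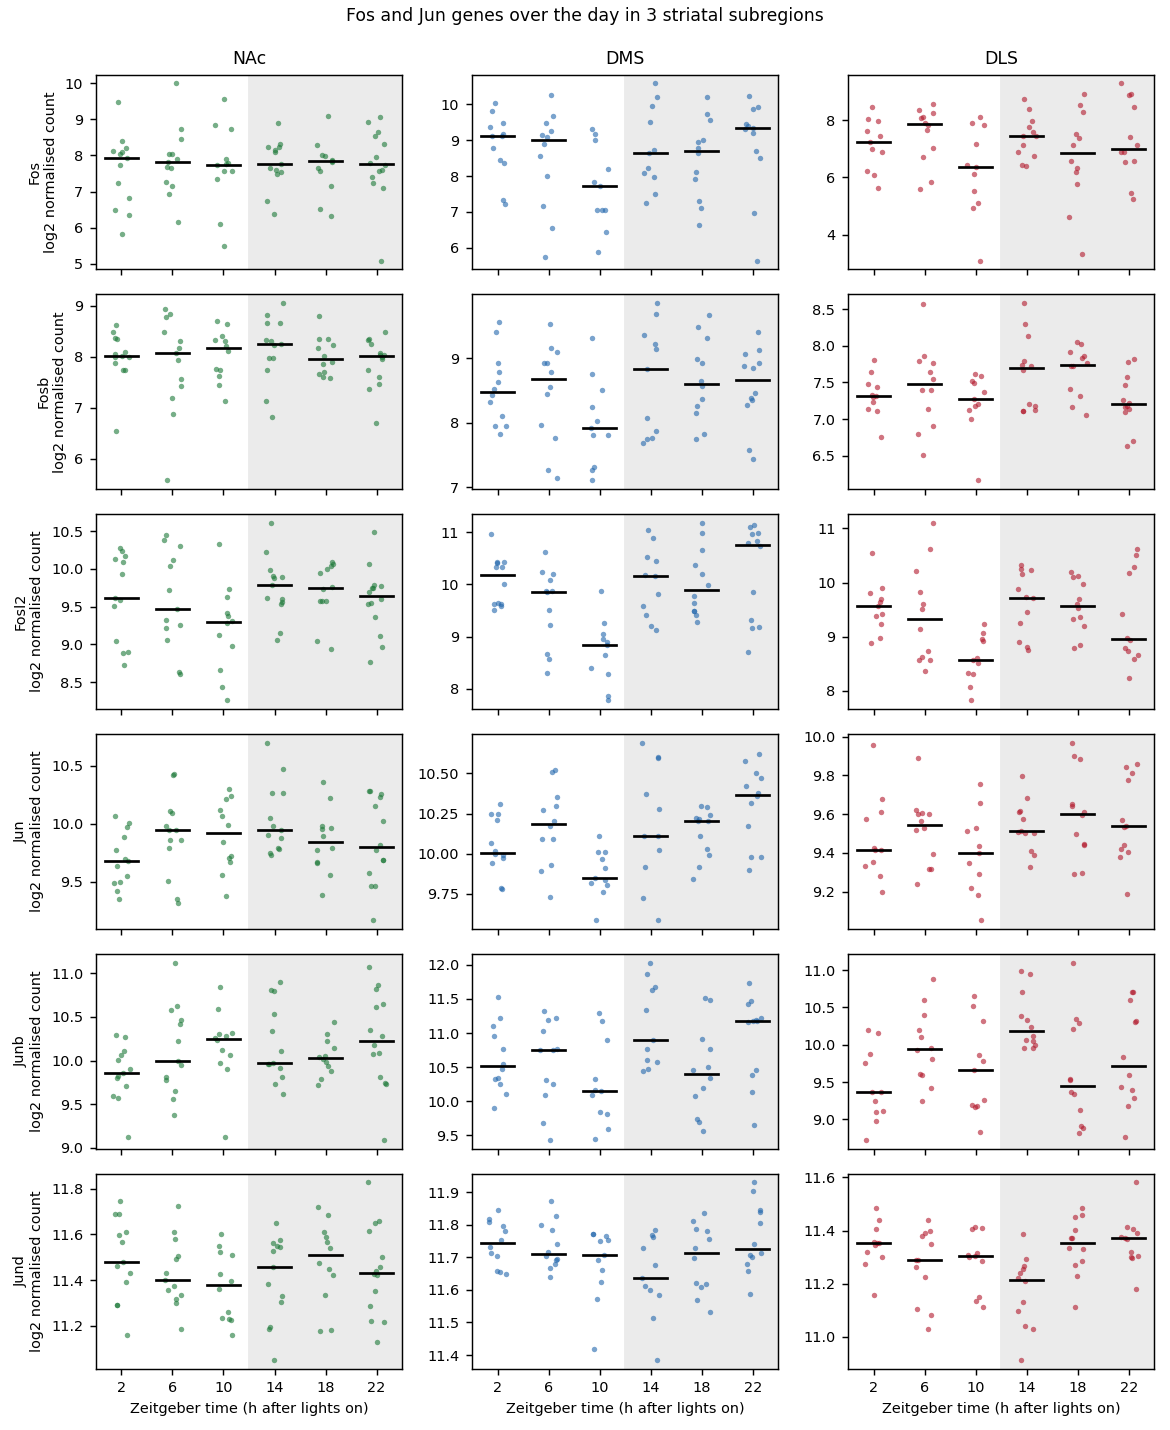
Log2 normalised count of each Fos and Jun gene (rows) by Zeitgeber time in NAc, DMS and DLS (columns, each with its own scale). Points are libraries, black bars medians of the libraries of a time, and the grey field is the dark phase. Fosl2 dips at ZT10 in the DMS and DLS columns, to medians of 8.84 and 8.57, and Jund stays within 11.39 to 11.93 in DMS.

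Of the other DMS members, Fosb had an amplitude of 0.34 ± 0.09, a 1.61-fold range, with its peak at 16.7 h (limma, adjusted p = 0.0079). Junb had 0.29 ± 0.09 with its peak at 16.3 h (adjusted p = 0.0371), and Jun, the target of the Jun N-terminal kinases, had 0.12 ± 0.03 at 18.5 h (adjusted p = 0.0187). Jund had 0.04 ± 0.02 (adjusted p = 0.156). The call of Junb was lost without any 1 of 11 libraries (0.0504 to 0.0657). So 4 of 6 members were called in DMS, where 25.2% of all genes were, and the median amplitude of the 6 was 0.315 against 0.0652 over all genes. In DLS 1 of 6 was called, Jund at 0.07 ± 0.02 with its peak at 23.6 h (adjusted p = 0.0175), where 21% of genes were, with a median amplitude of 0.183 against 0.0666. In NAc 0 of 6 were called at an adjusted p, and 0 at an unadjusted p under 0.05, where 2.56% of genes were called, with a median amplitude of 0.0962 against 0.0749.

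A cosine fits a dip at 1 time poorly. With time as 6 free levels, Fosl2 (limma, adjusted p = 0.0134), Junb (0.0299) and Jund (0.0089) were called in DLS, where 21.1% of genes were. In DMS the same 4 members as with the cosine were called, among 32.4% of genes, and in NAc none, among 1.54%. Without the class term 51.3% of DMS genes were called rhythmic: Fosl2 (amplitude 0.59, adjusted p = 0.0005), Jun (0.12, 0.0436) and Jund (0.06, 0.0129) were then called, while Fosb (0.21, adjusted p = 0.23) and Junb (0.16, 0.381) were not. The DMS calls of Fosb and Junb therefore rest on the class term, and that of Fosl2 does not. With the range of animal numbers as a further term, Fosb and Fosl2 were called and Jun and Junb were not. Fosl2 in DMS was also called within each class (0.52 in the low class, 0.57 in the high) and within each range of animal numbers (0.48 up to 29, 0.57 from 31). These splits are nested and not separate checks: all DMS libraries from 31 were of the high class. In females both groups were the same 17 of 34 libraries, and in males they held 9 and 16 of 36. In DMS fits with both terms, only males therefore part class from range.

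In DLS the ranges of animal numbers gave different pictures. In the 31 DLS libraries of animals numbered up to 29, Fosl2 had an amplitude of 0.66 ± 0.13 with its peak at 18.9 h (limma, adjusted p = 0.0077) and Fosb 0.43 ± 0.08 at 16.3 h (adjusted p = 0.0026), among 2.91% of genes called. In the 39 from 31 on, the amplitude of Fosl2 was 0.21 with its peak at 3.5 h, and only Jund was called (0.09, adjusted p = 0.0083), among 18.8%. The difference of rhythm between the ranges was called for no member in any subregion, with 0% of genes called in NAc, 0.00826% in DMS and 0% in DLS. For Fosl2 and Fosb in DLS its unadjusted p was 0.0009 and 0.0014, and its adjusted p 0.271 and 0.285. Jund in DLS (0.0162) and Fosl2 in NAc (0.0496) also had an unadjusted p under 0.05.

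The next comparison was of the dark with the light. In DMS, Fosl2, Fosb, Junb and Jun were higher in the dark. Fosl2 had a lowest, median and highest value of 8.69, 10.16 and 11.17 in 35 dark libraries, against 7.78, 9.62 and 10.96 in 35 light ones. The phases overlap, with the dark shifted up. The difference, with each time weighted equally, was 0.78 ± 0.12 (limma, adjusted p = 5.91e-06). Junb had 9.57, 10.77 and 12.03 in the dark, against 9.43, 10.33 and 11.53 in the light, a difference of 0.44 ± 0.11 (adjusted p = 0.0043). Fosb differed by 0.44 ± 0.11 (adjusted p = 0.0044) and Jun by 0.21 ± 0.05 (adjusted p = 0.0006).

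These 4 calls of 6 stand where 14.6% of DMS genes were called, and the members' median difference was 0.44, against -0.004 over all genes. The difference of Fos was 0.57 ± 0.22 and missed the threshold (adjusted p = 0.074), and passed without any 1 of 6 libraries (0.0373 to 0.0483). It was 0.37 with the range of animal numbers as a term (adjusted p = 0.267), 0.38 without the class term (0.425), 0.27 in the low and 0.06 in the high class, and 0.42 in animals up to 29 and -0.04 in those from 31. Jund differed by -0.01 ± 0.02. In DLS no member was called (8.52% of genes were), with Fosl2 at 0.32 ± 0.15 (adjusted p = 0.187) and 2 members at an unadjusted p under 0.05. In NAc no member was called (1.28% of genes were) and none had an unadjusted p under 0.05, with Fosl2 at 0.20 ± 0.11 (adjusted p = 0.442).

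Within batches, the dark minus light difference of Fosl2 in DMS was 0.81 in animals numbered up to 29 (adjusted p = 0.0101) and 0.39 in those from 31 (0.228), and 0.88 in the low class (0.0219) and 0.46 in the high (0.139). In animals up to 29 and from 31 it was 0.46 and 0.16 for Fosb, 0.33 and 0.19 for Junb, and 0.25 and 0.05 for Jun, of which that of Jun up to 29 passed (0.0202). Without the class term it was 0.64 (adjusted p = 0.0055), that of Jun 0.17 (0.0276), and those of Fosb, 0.29, and Junb, 0.35, missed the threshold (0.271 and 0.0961). In DLS the difference of Fosl2 was 0.94 in animals up to 29 (adjusted p = 0.0012) and -0.20 in those from 31 (0.411), and that of Fosb 0.58 (0.0026) and -0.13 (0.604).

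The times on either side of lights off were compared next. Fosl2 was higher at ZT14 than at ZT10 in both dorsal subregions. In DMS it spanned 9.12 to 11.04 at ZT14, against 7.78 to 9.87 at ZT10, a difference of 1.32 ± 0.22 on the log2 scale (limma, adjusted p = 6.0e-05). In DLS it spanned 8.75 to 10.32 at ZT14, against 7.83 to 9.23 at ZT10, a difference of 1.04 ± 0.26 (adjusted p = 0.0074). The times overlapped in part in each, with the medians well apart. In NAc the span was 9.06 to 10.61 at ZT14, against 8.26 to 10.33 at ZT10, and the difference 0.55 ± 0.20 (unadjusted p = 0.0068, adjusted p = 0.314).

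Junb differed by 0.86 ± 0.20 (adjusted p = 0.0036), Fosb by 0.65 ± 0.20 (0.0321) and Jun by 0.30 ± 0.08 (0.0112) in DMS, so 4 of 6 members were called, where 6.66% of genes were. Fos had the second largest difference there, 1.09 ± 0.39 (95% interval 0.31 to 1.88), and in DLS the largest, 1.19 ± 0.49 (0.21 to 2.16). Neither passed (adjusted p = 0.0781 in DMS and 0.149 in DLS). Without the library of the female F25 at ZT14, Fos passed in DMS (0.044), and Fosb failed without any 1 of 9 libraries (0.0502 to 0.0923). With the range of animal numbers as a term the difference of Fosb was 0.49 and its call was lost (adjusted p = 0.0929), which left 3 of 6 members. Animals numbered from 31 gave 5 of 11 DMS libraries at ZT14 and 7 of 11 at ZT10. In DLS 1 of 6 members was called, where 5.85% of genes were, and in NAc none, where 0.228% were. The DLS call of Fosl2 was lost with libraries scaled to an equal sum (adjusted p = 0.381). That scaling shifted the M13 library at ZT6 by -2.36 on the log2 scale. With it 1.9% of DLS genes were called rhythmic, against 21% without it, and 19.7% when M13 was left out. The ZT14 minus ZT10 difference was not rerun on that scaling without M13. Junb in DLS, at 0.63 ± 0.23 (adjusted p = 0.0844), passed without F19 or without M17 (0.0458 and 0.0444).

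The classes were evenly spread over these 2 times, with 7 high of 11 libraries at each. Without the class term the DMS differences were therefore the same, and Fosl2 (adjusted p = 0.0052) and Junb (0.0359) stayed past the threshold. Fosl2 was higher at ZT14 in each batch: by 1.39 and 1.08 in the lower and higher animal numbers of DMS (adjusted p = 0.0848 and 0.0143), by 1.28 and 1.35 in its low and high class (0.249 and 0.0007), and by 1.38 and 0.78 in the lower and higher numbers of DLS (0.0239 and 0.0484). Between ZT2 and ZT22, the times around lights on, no member was called in any subregion, where 0%, 0.0165% and 0.0965% of genes were in NAc, DMS and DLS. There Junb in NAc (-0.38 ± 0.16) and Jun in DMS (-0.24 ± 0.08), both lower at ZT2, had an unadjusted p under 0.05.

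**Figure D2:**
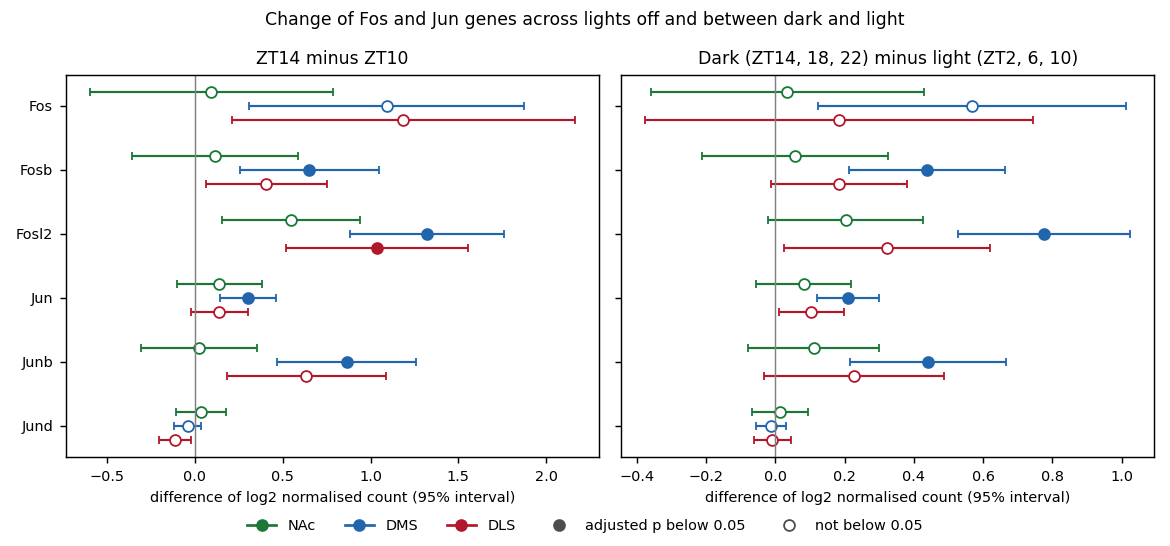
Difference of log2 normalised count, ZT14 minus ZT10 (left) and dark minus light (right), for each member in NAc, DMS and DLS, with 95% intervals. Filled points have an adjusted p below 0.05. Fosl2 is the 1 member filled in 2 subregions on the left, at 1.32 and 1.04, and all filled points on the right are of DMS.

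Males and females were compared in level and in rhythm. In level no member was called, where 0.0758% of NAc, 4.21% of DMS and 0.202% of DLS genes were. The differences nearest to a call were in DMS: Jund was 0.06 ± 0.02 higher in males (limma, adjusted p = 0.0757, and 0.0419 to 0.0486 without any 1 of 3 libraries), and Junb 0.32 ± 0.11 higher (adjusted p = 0.0875). The ranges of animal numbers were uneven by sex in DMS, with 9 of 36 males and 17 of 34 females from 31. With the range as a term the difference of Junb was 0.10 (adjusted p = 0.665), and it was 0.18 in animals up to 29 and -0.01 in those from 31. Fos was 0.40 ± 0.22 higher in males than in females in DMS and 0.45 ± 0.20 lower in NAc (adjusted p = 0.322 and 0.921). In DMS that of Fos was 0.05 with the range as a term (adjusted p = 0.936), 0.37 up to 29 and -0.36 from 31. An unadjusted p under 0.05 was reached by 1 member in NAc (Fos), 3 in DMS (Jun, Junb and Jund) and 1 in DLS (Jund).

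Each sex was given its own curve in 1 fit of all DMS libraries, with a class term shared by both sexes. In that fit DMS males were rhythmic in Fos (amplitude 0.80 ± 0.22, limma, adjusted p = 0.0282), Fosb (0.53 ± 0.12, 0.0057), Fosl2 (0.60 ± 0.14, 0.0074), Jun (0.25 ± 0.04, 0.0004) and Junb (0.48 ± 0.12, 0.0153), among 12.6% of genes called. DMS females were rhythmic in Fosl2 (0.57 ± 0.14, 0.0111) and Jund (0.08 ± 0.02, 0.0354), among 12.7%. The amplitudes in females of Fos (0.18 ± 0.24), Fosb (0.16 ± 0.12), Jun (0.07 ± 0.05) and Junb (0.10 ± 0.12) were not called. With the range of animal numbers as a term, Jun alone was called in males (0.21, adjusted p = 0.00653), with Fos at 0.52 (0.24), Fosb at 0.35 (0.102), Fosl2 at 0.47 (0.0516) and Junb at 0.30 (0.183), while Fosl2 (0.55, 0.00719) and Jund (0.08, 0.0416) were called in females. Without the class term no member was called in males, and Fosl2 and Jund were in females. The difference between the sexes itself was called for no member, and for 0% of genes in each of NAc, DMS and DLS. Its smallest unadjusted p among the members was that of Jun in DMS, 0.0002 (adjusted p = 0.304), followed by Fos in DMS, 0.0223 (adjusted p = 0.486), and no other was under 0.05.

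The sexes stood apart in DMS at ZT14, a time singled out after its values were seen, so no test is given. Fos had a lowest, median and highest value of 8.65, 9.73 and 10.58 in 6 males, against 7.25, 7.99 and 8.23 in 5 females, and Junb spanned 10.90 to 12.03 in males, against 10.44 to 10.77 in females. Jun spanned 10.111 to 10.691 in males, against 9.585 to 10.108 in females. No male overlapped a female in Fos, Junb or Jun, though in Jun the lowest male (10.111) barely cleared the highest female (10.108). How many of all genes part the sexes in this way was not counted. The batches were uneven there: 1 of 6 males and 4 of 5 females had animal numbers from 31, and 3 of 6 males and 4 of 5 females were in the high class. Their part in the separation was not tested. At ZT14 in DLS Fos spanned 7.12 to 8.73 in males, against 6.41 to 7.46 in females, and in NAc 6.74 to 8.91 in males, against 6.37 to 8.31 in females, so the sexes overlapped in both.

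**Figure D3:**
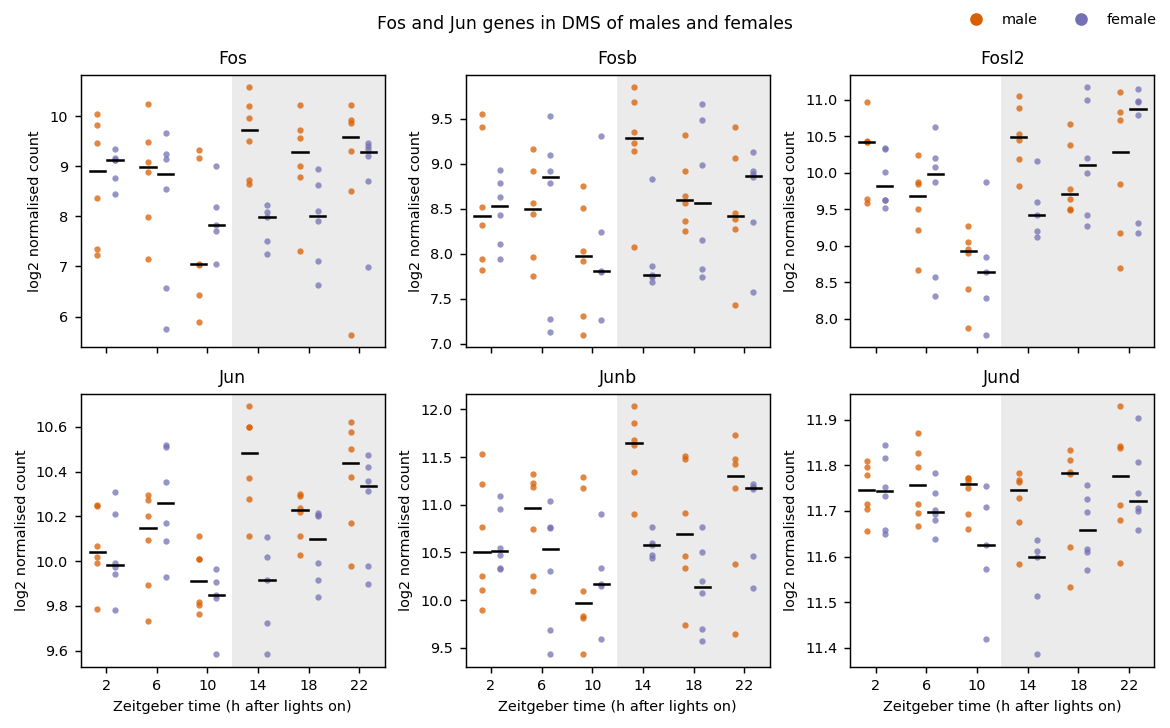
Log2 normalised count of each member in DMS by Zeitgeber time, males left and females right at each time. Points are libraries, black bars medians and the grey field is the dark phase. Fos, Jun and Junb of the 6 males at ZT14 lie above those of the 5 females, Jun barely so. That time was singled out after its values were seen, and 1 of these males and 4 of these females had animal numbers from 31. Fosl2 is low at ZT10 in both sexes.

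Rhythm was then compared between subregions, over the 11283 genes in all 3 tables. No member differed between any pair: the test called 0% of genes for DMS against NAc, 0.292% for DLS against NAc and 0% for DMS against DLS. For DMS against NAc, Fosl2 had an unadjusted p of 0.0082 (adjusted p = 0.352) and Jun 0.0266 (0.407), and for DLS against NAc Jun had 0.037 (0.4). The calls in DMS and their absence in NAc are therefore not shown to differ.

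Because 77 animals gave more than 1 subregion, a member's level could be followed across subregions of the same animal after time, sex, range of animal numbers and DMS class were removed. These were removed as additive terms, so a difference between the sexes at a single time, as in DMS at ZT14, stays in. Animals with high Fos in 1 subregion had, by rank and by level, more Fos in the others. Pearson's r of Fos was 0.57 between DMS and NAc (63 animals), 0.50 between DLS and NAc (57) and 0.66 between DMS and DLS (51), with Spearman's rho of 0.61, 0.55 and 0.63. Each passed a permutation test (adjusted over 18 relations, p = 6.0e-05, 0.00036 and 3.6e-05). Without the 2 animals farthest from the median r was 0.57, 0.43 and 0.59. Within the lower and higher animal numbers it was 0.55 and 0.49 for DMS and NAc, 0.61 and 0.42 for DLS and NAc, and 0.65 and 0.71 for DMS and DLS.

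Junb (r = 0.59, 0.54 and 0.57 in the same order) and Fosl2 (0.52, 0.44 and 0.59) also passed in every pair. Within the lower and higher animal numbers r of Junb was 0.65 and 0.31 for DMS and NAc, 0.66 and 0.49 for DLS and NAc, and 0.64 and 0.65 for DMS and DLS, and r of Fosl2 was 0.42 to 0.73 throughout. Across all genes the median r was 0.0419, -0.018 and 0.129, and these 3 members stood above 99.5% to 99.9% of the 11289 to 11721 genes compared. Fosb passed between DLS and NAc (r = 0.45, adjusted p = 0.0011) and between DMS and DLS (0.31, adjusted p = 0.0447, and 0.0581 by Spearman's rho), but r between DLS and NAc was 0.10 in the lower and 0.68 in the higher animal numbers. Jun (0.16, 0.04 and 0.20) and Jund (0.05, -0.14 and 0.28) passed in no pair. So 11 of 18 relations passed, and 10 by rank.

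**Figure D4:**
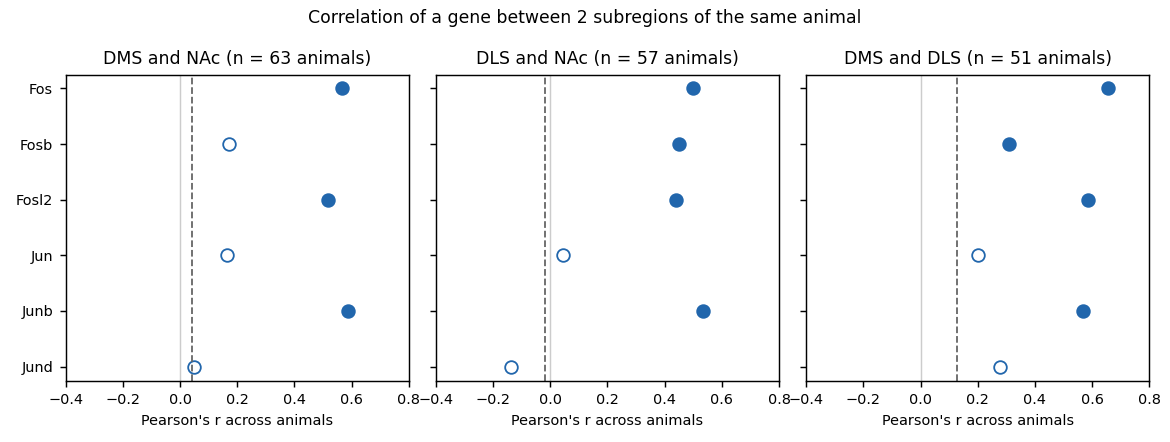
Pearson's r of each member between subregions of the same animal, after time, sex, range of animal numbers and DMS class were removed. Filled points have an adjusted p below 0.05 and the dashed line is the median of all genes. Fos, Fosl2 and Junb are filled in all 3 pairs, at 0.44 to 0.66, and Jun and Jund in none.

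The members also varied together within a subregion, across libraries with the same terms removed. Fos and Junb were tied most closely, with r of 0.65 in NAc, 0.83 in DMS and 0.77 in DLS (rho 0.60, 0.86 and 0.76), and without the 2 farthest libraries 0.64, 0.80 and 0.77. In the lower and higher animal numbers r was 0.73 and 0.54 in NAc, 0.89 and 0.75 in DMS, and 0.88 and 0.68 in DLS. Fosb and Fosl2 had r of 0.55, 0.72 and 0.68, and in NAc Jun was tied as closely to Fos (0.60) and Fosl2 (0.59). Of 45 pairs of members and subregions, 32 passed a permutation test after adjustment over the 45. Jund took part in most of the 13 that did not: its r with Fos was 0.35 in NAc, 0.25 in DMS and 0.14 in DLS. Jun and Fosb showed r of 0.41 in NAc, 0.37 in DMS and -0.09 in DLS. How many pairs of all listed genes pass the same test was not counted. Libraries of a subregion share depth and normalisation, so the 32 of 45 is a description and does not set the members apart.

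**Figure D5:**
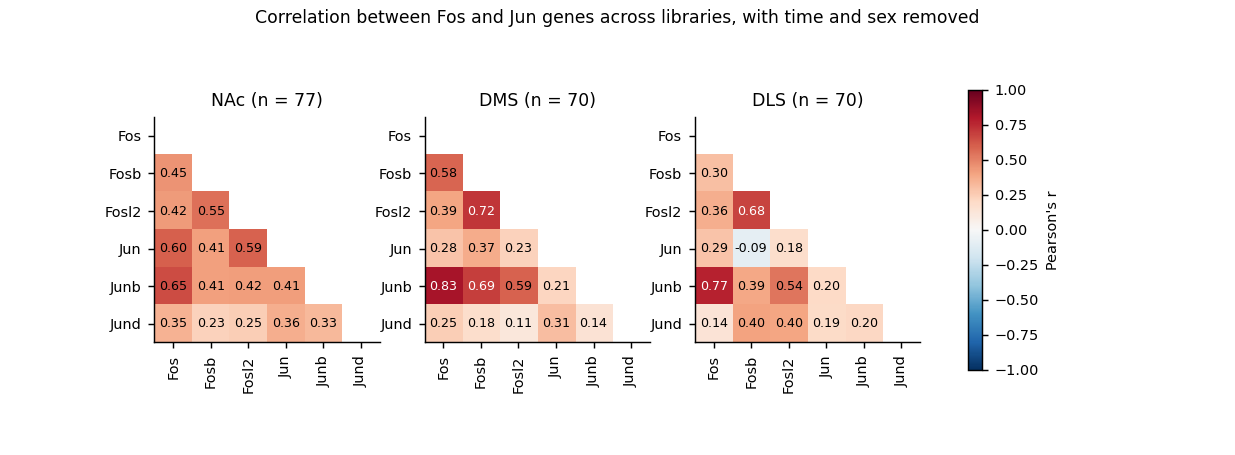
Pearson's r between each pair of members across the libraries of NAc, DMS and DLS, with time, sex, range of animal numbers and DMS class removed. Numbers in the squares are r. Fos with Junb (0.65, 0.83 and 0.77) is the darkest square of each panel, and the squares of Jund hold 0.11 to 0.40.

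The genes whose pattern was most like each member, with time kept in, were ranked by the lowest r over the 3 subregions. These values are descriptions across libraries that share depth and normalisation. Nearest to Fos were Arc, a synaptic immediate early gene (lowest r 0.67), Dusp1, a phosphatase of the MAP kinases (0.66), and Junb (0.64). Junb was nearest to Nr4a1, an inducible nuclear receptor (0.82), Arc (0.77) and Dusp1 (0.65). Fosl2 was nearest to Nr4a3, another such receptor (0.79), Arc (0.61) and Spry4, a feedback inhibitor of receptor kinase signalling (0.57), and Fosb to Nr4a3 (0.60), Egr1, an inducible zinc finger factor (0.59), and Per1, a clock gene (0.54).

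Jun and Jund kept other company. Jun was nearest to Gm11223 (lowest r 0.48), Stmn1, a tubulin-binding protein (0.48), and Igfbp5, a binding protein of insulin-like growth factors (0.46). Jund was nearest to Cx3cl1, a neuronal chemokine (0.52), Scaf1 (0.48) and Cic, a transcriptional repressor (0.47). Jun was also the 1 member that moved with cell type markers among 54 relations, with time, sex, range of animal numbers and DMS class removed. With the summed cortical neuron markers its r was 0.48 in NAc (adjusted p = 0.0011, rho 0.47, 0.45 without the 2 farthest libraries), 0.30 in DMS (0.115) and 0.39 in DLS (0.0169). In the lower and higher animal numbers it was 0.42 and 0.57 in NAc and 0.40 and 0.39 in DLS. With the summed medium spiny neuron markers it was -0.27 in NAc (adjusted p = 0.115), -0.36 in DMS (0.0313) and -0.45 in DLS (0.0027), but in DMS 0.01 in the higher numbers. With the cortical sum as a covariate the amplitude of Jun was 0.06 in NAc (unadjusted p = 0.401), against 0.12 without it (0.0528), 0.12 in DMS with or without it, and 0.08 in DLS, against 0.07. No call of a member on rhythm or time changed with that covariate. That sum, as log2, spanned 7.38 to 12.91 in dark and 6.78 to 12.76 in light DMS libraries.

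Genes of the same pathway were read from 5 lists. Of the activity-induced immediate early genes, 12 of the 19 listed in DMS were rhythmic, against 25.2% of all genes. Of these 11 peaked in the dark, as did 1677 of the 3051 rhythmic DMS genes, and the median amplitude of the list was 0.24. The largest amplitudes were those of Nr4a3 (0.68 ± 0.13, peak at 17.8 h), Egr2 (0.59 ± 0.14) and Nr4a1 (0.53 ± 0.15). Of the 19 listed, 10 were called higher in the dark and 1 lower, Gadd45b (-0.22 ± 0.07 by the same contrast), named after its value was seen. Of all 12101 DMS genes, 959 were called higher in the dark and 812 lower. In DLS 5 of 17 were rhythmic (29.4%, against 21% of all genes), led by Trib1, a pseudokinase (0.29), Egr1 (0.24) and Homer1, a postsynaptic scaffold (0.22). In NAc 1 of 20 was (5%, against 2.56%), Trib1 (0.36, peak at 14.0 h).

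Upstream, DMS had 12 rhythmic of 32 kinases and factors that act on Fos and Jun genes and DLS had 11 (37.5% and 34.4%, against 25.2% and 21% of all genes), while NAc had 0 at an adjusted p below 0.05 and 4 at an unadjusted one. Srf, the serum response factor, had an amplitude of 0.19 ± 0.02 with its peak at 18.1 h in DMS (limma, adjusted p = 1.35e-07) and 0.15 ± 0.04 at 17.9 h in DLS (0.0033). The other named genes were Crtc2, a coactivator of CREB (0.14 in DMS and 0.16 in DLS), Rps6ka3, a kinase of the ERK pathway (0.13 in DMS), and Mrtfa, a coactivator of Srf (0.14 in DLS). The median amplitudes of the list, 0.056 in DMS and 0.075 in DLS, were near those of all genes.

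Of other bZIP factors that can pair with Fos or Jun proteins, 12 of 17 were listed in each subregion. Mafg, a small Maf protein, was rhythmic in all 3, with amplitudes of 0.13 in NAc, 0.16 in DMS and 0.14 in DLS and peaks at 20.3 to 20.4 h. In DLS Bach2 (0.36) and Atf4 (0.22) were called as well, among 4 of 12, and in DMS Mafk (0.14) and Atf2 (0.06), with Mafg 3 of 12. In NAc Mafg was the 1 called. The DMS share, 25%, is that of all genes (25.2%), while in DLS it was 33.3%, against 21%, and in NAc 8.33%, against 2.56%.

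Of genes that govern the decay of Fos and Jun products, DMS had 5 rhythmic of 11 and DLS had 2 (45.5% and 18.2%, against 25.2% and 21% of all genes), while NAc had 0, and 1 at an unadjusted p under 0.05. The largest were Elavl1, an RNA-binding protein that stabilises short-lived mRNAs (0.07 in DMS and 0.06 in DLS), Cops5, a COP9 signalosome subunit that binds Jun (0.07 in DMS), and the ubiquitin ligases Itch (0.07 in DMS) and Cop1 (0.08 in DLS). Of 8 described FosB targets in striatum, DMS had 2 rhythmic (25%, near the 25.2% of all genes), DLS had 4 (50%, against 21%) and NAc had 0, also at an unadjusted p under 0.05. Tac1, the precursor of substance P, peaked at 19.5 h in DMS (0.10 ± 0.03) and 18.0 h in DLS (0.16 ± 0.03). Gria2, a glutamate receptor subunit, had 0.11 in DMS, Npy 0.18 in DLS, and Pdyn, the precursor of dynorphins, 0.16 in DLS with its peak in the light at 5.0 h.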

How the data were processed

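Per the labels' protocols, RNA of bilateral striatal punches was made into stranded libraries and sequenced as 75 bp paired reads, with a target of 40 M reads a library. The submitters' processing notes name FastQC, Trimmomatic, HISAT2 2.1.0 and HTSeq 0.10.0; the design text names GRCm38 and the notes GRCh38, and the files' gene IDs are of the mouse. The strand setting of the counting is not given in the sources used here. The authors deposited log2 values of normalised counts, 1 table a subregion. In DMS and DLS the deposited log2 values were whole reads times 1 step a library plus 1 (tolerance 0.01 reads, 100% of values), which gave the depths. In NAc a median of 2.01% of values were whole, so its depth is unknown. The NAc values differed less between ranges of animal numbers than chance spread. The sources used here give no step that accounts for this, and its cause was not tested. The SD of an unequal-variance t between the ranges, with no other terms, was 0.372 over 11867 genes, against 6.48 in DMS and 2.20 in DLS.

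Libraries were grouped by subregion, time and sex from the labels. The log2 values were fitted with limma 3.58.1 (R 4.3.3, with a variance trend) over all listed genes, with no filter or pseudocount added. Rhythm was a 24 h cosine and sine with sex as a term; contrasts took time as 6 levels, dark minus light being the mean of 3 dark times minus that of 3 light times. In DMS the class of mitochondrial rRNA share (above or below 32%) was a term. Adjusted p is Benjamini-Hochberg over all genes, called below 0.05. An ± after a difference or amplitude is an SE, after a level an SD. Correlations used residuals of a linear fit with additive terms for sex, time, range of animal numbers and, in DMS, class. A difference between the sexes at a single time was therefore not removed. Tests of correlations used 100000 permutations, 2-sided (the smallest p they can give is 1e-05). Scripts were tested on simulated data and run with scipy 1.17.1, numpy 2.4.6 and pandas 2.3.3 under Python 3.11.15. A model on the recovered reads (voom) called 3058 DMS and 2444 DLS genes rhythmic, against 3051 and 2392 on log2 values.

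Each animal is its own replicate. Males and females with the same number were not taken as pairs. The correlation of same-numbered animals across genes was -0.020, -0.109 and 0.148 in NAc, DMS and DLS, which does not settle whether they are paired. Subregions of 1 animal are paired by design, with a correlation of 0.036 across genes. Named genes were the 6 members, at most the 3 largest amplitudes of each list and subregion past the threshold, and the 3 genes nearest to each member by the lowest r over subregions. The members and lists were chosen with earlier results of these data known. Promoter sequences are from RefSeq, GRCm38.p6; all 6 members matched, and those of Jund and Fosl2 are not shown.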

Additional observations from a re-analysis of the deposited data

Results flagged for a closer look

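Of 216 groups of 1 member, sex, time and subregion, 10 held a library far from the rest of its group, where chance gives about 1 in 20. In NAc, Fosb was 6.53 in the female F6 at ZT2 against 7.99 to 8.61 in the other females of that time, Fosl2 was 8.76 in the male M1 at ZT22 against 9.36 to 9.77, and Junb was 9.13 in the male M16 at ZT10 against 9.97 to 10.31. In DMS, Fos was 6.98 in the female F49 at ZT22 against 8.70 to 9.46 and 5.64 in the male M47 at ZT22 against 8.51 to 10.23. Fosb in DMS was 8.83 in the female F25 at ZT14 against 7.68 to 7.87, the library without which the ZT14 minus ZT10 difference of Fos passed the threshold. In DLS, Fos was 5.59 in the male M34 at ZT6 against 7.83 to 8.55, and Fosl2 was 10.17 in the male M4 at ZT22 against 8.25 to 8.93. Jun in DLS was 9.32 in the female F34 at ZT6 against 9.52 to 9.62 and 9.96 in the female F9 at ZT2 against 9.34 to 9.43.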

How the results depend on the processing

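Fosl2 kept its DMS rhythm under every alternative run. Of the 6 members, 4 were rhythmic in DMS, and 2 with libraries scaled to an equal sum, 2 with the range of animal numbers as a term, 1 in each range alone, 1 in the low class and 2 in the high class. For dark minus light in DMS 4 became 2 without the class term, 2 in numbers up to 29, 0 in those from 31, 1 in the low class and 0 in the high class. For ZT14 minus ZT10 in DMS 4 became 2 with an equal sum, 2 without the class term, 0 up to 29, 2 from 31, 0 in the low class and 2 in the high class. In DLS 1 rhythmic member became 3 with time as 6 levels, 0 with an equal sum (1 without the male M13 at ZT6, which that scaling moved most) and 2 up to 29; dark minus light 0 became 2 up to 29; and ZT14 minus ZT10 1 became 0 with an equal sum and 2 with the range term or in either range alone. Of member pairs, 32 became 19 in numbers from 31, where r of Fosl2 and Jund in NAc was -0.0885 and of Junb and Jund -0.0437, against 0.25 and 0.33 over all. Single ranges and classes hold fewer libraries. The share of all genes called rhythmic also changed, so a lower count alone does not set the members apart. In DMS it was 25.2%, 20.9% with an equal sum and 23.7% with the range term. It was 12.2% up to 29, 10.2% from 31, 7.83% in the low class and 14.97% in the high. In DLS it was 21%, 21.1% with 6 levels, 1.9% with an equal sum, 19.7% without M13 too and 2.91% up to 29. Such shares of the contrasts are not given here. The other causes were not tested. Leaving out each library in turn gave 3 to 4 rhythmic members in DMS, 4 to 5 for dark minus light, 3 to 5 for ZT14 minus ZT10, 0 to 1 for sex level in DMS and 1 to 2 for ZT14 minus ZT10 in DLS. With the replicate block, by animal number between sexes and by animal between subregions, 0 members were called, as without it. Contrasts within ranges and classes, the test between ranges, the cortical covariate and the fit without M13 were chosen after seeing the data. The lowest Fos library, with 6 reads in DLS, shows where counting error limits a value.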
